A study of Mus musculus with 16 samples.

Results

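The genes described are Nr3c1, which encodes the glucocorticoid receptor (GR), and 5 genes long used as readouts of GR activation, Tsc22d3, Fkbp5, Per1, Sgk1 and Ddit4. They were chosen by name, with earlier results of these data known, and all 6 were found among the 9614 genes with deposited RNA-seq values. The values come from 16 libraries of mouse bone-marrow-derived macrophages (BMDM), primary macrophages grown in culture from marrow. WT cells came from C57BL/6 males of the genotype LysM-Cre: NELF-B wt/wt and NELF-B KO cells from LysM-Cre: NELF-B fl/fl males, all 8 weeks old, with 3 mice per genotype. Each genotype had 2 untreated libraries, 3 libraries treated for 1 h with LPS at 10 ng/ml, and 3 treated for 1 h with the same LPS plus dexamethasone (Dex) at 100 nM. LPS, lipopolysaccharide from the outer membrane of bacteria, switches on inflammatory genes, and Dex is a synthetic glucocorticoid. All groups carried LysM-Cre, a recombinase driven by the myeloid lysozyme gene Lyz2, so the WT libraries are Cre-carrying controls. No group received Dex without LPS, and every Dex effect below is therefore a change on top of LPS. Letters A, B and C name the mice of a genotype, and the untreated libraries came from A and B.

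Without hormone, GR is held in the cytoplasm by HSP90 and its cochaperones, and on binding a glucocorticoid it moves to the nucleus. There it activates some genes by binding as a dimer to the glucocorticoid response element (GRE), a palindromic DNA motif, and lowers the output of inflammatory genes driven by NF-kB and AP-1. In macrophages several of the activated genes encode products that restrain inflammation or feed back on the receptor itself. NELF-B is a subunit of the negative elongation factor, which holds RNA polymerase II shortly after initiation.

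The sequences upstream of the targets are shown first because GR acts through DNA motifs in part. The RefSeq table for GRCm38.p6 held 13 windows of 250 bases before annotated transcription starts for the 5 targets, with 1 for Fkbp5 and Ddit4, 2 for Per1, 3 for Tsc22d3 and 6 for Sgk1. Both strands were searched for the palindromic GRE with the letters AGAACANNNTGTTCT, for its half-site AGAACA, and for the E-box CACGTG. The E-box is the motif read by the clock factors that drive Per1. Printed below is 1 window with a match for each of Tsc22d3, Fkbp5, Per1 and Sgk1, and for Sgk1, which had half-sites in 3 of its 6 windows, the one with the full palindrome. Each is read 5′ to 3′ on the strand of the gene, with the matched letters in capitals.
Tsc22d3: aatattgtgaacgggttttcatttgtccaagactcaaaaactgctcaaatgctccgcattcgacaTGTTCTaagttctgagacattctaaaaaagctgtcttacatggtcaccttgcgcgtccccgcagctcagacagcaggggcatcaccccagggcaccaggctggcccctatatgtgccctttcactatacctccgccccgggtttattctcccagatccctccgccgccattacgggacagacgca
Fkbp5: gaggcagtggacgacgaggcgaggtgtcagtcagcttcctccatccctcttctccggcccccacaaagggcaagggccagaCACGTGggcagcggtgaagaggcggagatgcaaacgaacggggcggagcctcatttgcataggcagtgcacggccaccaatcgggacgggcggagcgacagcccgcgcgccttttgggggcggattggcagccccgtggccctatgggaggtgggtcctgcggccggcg
Per1: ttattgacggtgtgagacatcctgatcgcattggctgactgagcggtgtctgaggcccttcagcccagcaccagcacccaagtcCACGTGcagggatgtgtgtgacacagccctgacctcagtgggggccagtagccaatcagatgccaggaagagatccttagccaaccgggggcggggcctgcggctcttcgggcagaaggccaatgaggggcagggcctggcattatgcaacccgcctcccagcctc
Sgk1: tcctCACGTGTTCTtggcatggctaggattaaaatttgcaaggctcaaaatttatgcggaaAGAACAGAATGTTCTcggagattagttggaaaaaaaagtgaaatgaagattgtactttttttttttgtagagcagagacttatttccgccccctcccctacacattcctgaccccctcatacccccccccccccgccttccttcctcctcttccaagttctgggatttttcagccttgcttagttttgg

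The Sgk1 window, at chr10:21993640-21993889 on the plus strand, held the full palindrome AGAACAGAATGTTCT. The match lies at chr10:21993701-21993715, 189 to 175 bases before that start, inside an annotated Sgk1 transcript and outside its exons. Of 32851 promoter windows of this length in the table, 3 held the full palindrome (0.00913%). The same Sgk1 window also held, nearer its 5′ end, an E-box that overlaps a half-site, printed as a single run of capitals. The Tsc22d3 window, at chrX:140600523-140600772 on the minus strand, held a half-site at chrX:140600702-140600707. Half-sites were present in 16.1% of all windows, so a single one is common. The Fkbp5 window, at chr17:28486150-28486399 on the minus strand, and the Per1 window, at chr11:69098699-69098948 on the plus strand, each held an E-box, a motif present in 6.02% of all windows. The single Ddit4 window, at chr10:59951771-59952020 on the minus strand, held none of these letters. These matches are descriptions of sequence and not measured binding sites. Reads were counted per gene, so the values do not show which of several starts was used.

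In the GENCODE vM21 annotation of GRCm38, the genes are protein coding and lie at chr18:39410545-39519421 (Nr3c1, minus strand), chrX:140539528-140600659 (Tsc22d3, minus strand), chr17:28399094-28517527 (Fkbp5, minus strand), chr11:69095217-69109960 (Per1, plus strand), chr10:21882184-21999903 (Sgk1, plus strand) and chr10:59949669-59951834 (Ddit4, minus strand). Levels are given as log2 CPM, the log2 of the reads of a gene scaled to the size of its library, so a difference of 1 is a doubling. The libraries held 25030999 to 49730049 reads on the table. The recovered reads per library ran from 953 to 4920 for Nr3c1, from 411 to 10644 for Tsc22d3, from 291 to 4012 for Fkbp5, from 1008 to 10309 for Per1 and from 3688 to 35231 for Sgk1. Ddit4 had 22 to 381 reads and is the least precisely measured of the 6. A gene was called when its adjusted p (limma over all 16 libraries, Benjamini-Hochberg over the 9614 genes) was under 0.05, and standard errors (SE) and 95% intervals come from the same fit.

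Some facts of the libraries bear on all values. Nelfb, the deleted gene, was 5.59 to 6.21 log2 CPM in the WT libraries and 3.27 to 4.38 in the KO libraries, so the genotypes did not overlap. The untreated library of WT mouse A stood apart, with correlations across genes of 0.830 to 0.909 with the other libraries against 0.924 to 0.993 among those. Of 10 macrophage markers 9 were measured, and their summed level was 12.81 to 13.27 log2 CPM in every library, led by Csf1r at 11.36 to 11.93, while Lyz2 was only 4.30 to 6.33 and Adgre1 was not among the measured genes. Only 2 of 8 B and T cell markers, 1 of 8 neutrophil and progenitor markers, 1 of 5 dendritic cell markers and 4 of 6 fibroblast and stromal markers were among the measured genes. Their summed levels over the libraries were 4.26 to 6.57, 2.45 to 5.38, -1.12 to 3.33 and 5.62 to 7.18 log2 CPM in that order. The filter behind the measured genes is not known, so these counts do not show that other cells were absent. The inflammatory response itself was present. Tnf, Il1b, Il6 and Ptgs2, which encode cytokines and the inducible prostaglandin synthase, and Nfkbia, which encodes the NF-kB inhibitor IkB-alpha, were all called higher after LPS in both genotypes. On the mean of the genotypes, Dex lowered Tnf by 1.10 (SE 0.18, adjusted p = 0.00332), Il1b by 1.83 (SE 0.15, adjusted p = 9.18e-06) and Ptgs2 by 1.83 (SE 0.15, adjusted p = 9.72e-06) on the log2 scale. The Dex difference was -1.003 for Il6 (SE 0.28, adjusted p = 0.117) and -0.12 for Nfkbia (SE 0.12, adjusted p = 1), and neither was called.

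The first question was what Dex did to the receptor and its targets in LPS-treated cells. Tsc22d3, Fkbp5, Per1 and Ddit4 rose with Dex on the mean of both genotypes, by 3.81, 2.98, 2.18 and 1.66 on the log2 scale. Sgk1 and Nr3c1 were not called, with differences of 0.01 and -0.13. Of all 9614 genes 203 were called on this mean (2.11%), with 119 higher (1.24%) and 84 lower (0.874%). The median change was 1.92 for the 6 genes and -0.005 for all genes. In WT alone 3 of the 6 were called, against 0.749% of all genes, and in NELF-B KO alone the same 3, Tsc22d3, Fkbp5 and Per1, against 0.895%. By size of the mean Dex change, Tsc22d3, Fkbp5, Per1 and Ddit4 ranked 2, 3, 8 and 20 from the top of the 9614 genes.

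**Figure D1:**
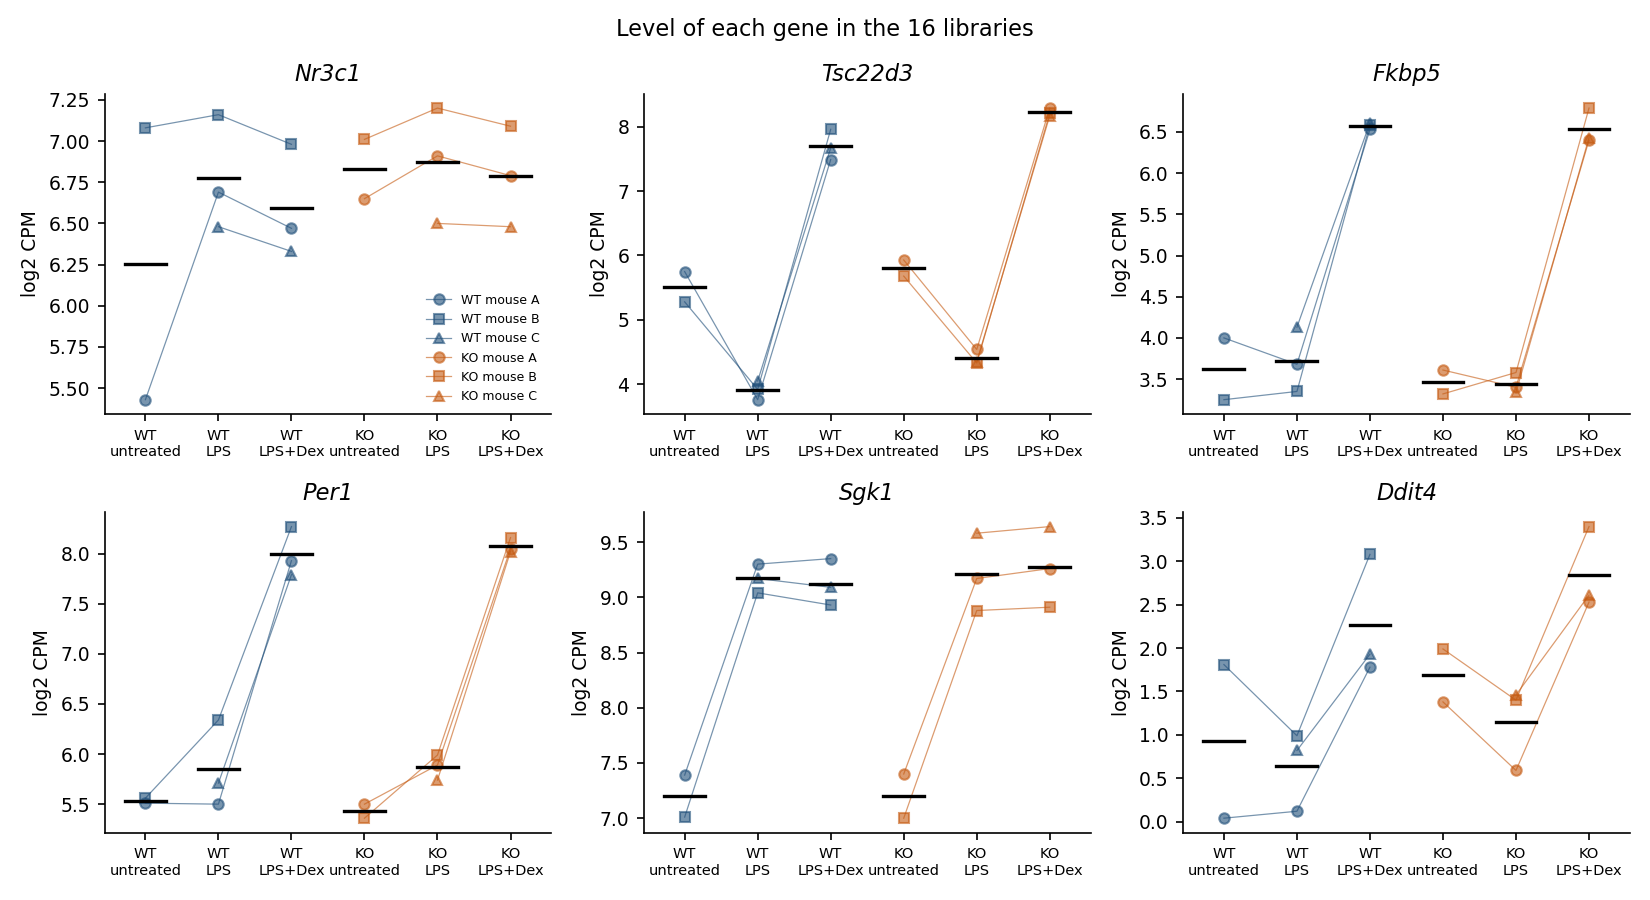
Level of each of the 6 genes (vertical axis, log2 CPM) in the 16 libraries, grouped on the horizontal axis by genotype and treatment. Points are libraries, lines join the libraries of a mouse and black bars are group means. The 4 genes that rose with Dex lie above the LPS libraries of the same genotype in all 3 LPS+Dex libraries, while Sgk1 separates the untreated libraries from the rest and Nr3c1 separates none of the treatments.

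Nr3c1, the receptor gene, was expressed in every library. It was 5.43 and 7.08 log2 CPM in the untreated WT libraries of mice A and B, and 6.65 and 7.01 in the untreated KO libraries. After LPS it was 6.69, 7.16 and 6.48 in the WT mice (in the order A, B, C) and 6.91, 7.20 and 6.50 in the KO mice. After LPS+Dex it was 6.47, 6.98 and 6.33 in WT and 6.79, 7.09 and 6.48 in KO. All groups overlapped, and mouse B was the highest of its genotype under every treatment. Within the same mouse, Nr3c1 was lower after LPS+Dex than after LPS in 6 of 6 mice, by a log2 difference of -0.213 to -0.021. That difference averaged -0.13 (95% interval -0.67 to 0.41, adjusted p = 1). With the mouse as a block it had an interval of -0.44 to 0.18. The spread in that fit also draws on the untreated libraries, among them that of WT mouse A. The same-mouse Dex changes themselves had an SD of 0.066 (n = 6 mice) and were not tested on their own. Ordered by mean level, the groups ran from untreated WT (6.26 ± 1.16, SD, n = 2) over LPS+Dex WT (6.60 ± 0.34, SD, n = 3), LPS WT (6.77 ± 0.35, SD, n = 3), LPS+Dex KO (6.79 ± 0.30, SD, n = 3) and untreated KO (6.83 ± 0.26, SD, n = 2) to LPS KO (6.87 ± 0.35, SD, n = 3), and no neighbours in this order differed by more than their spread.

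Tsc22d3 encodes GILZ, a leucine zipper protein that binds and restrains NF-kB and AP-1. It was 5.75 and 5.28 log2 CPM in the untreated WT libraries and 5.93 and 5.68 in the untreated KO libraries. After LPS it was 3.76, 3.92 and 4.05 in the WT mice and 4.54, 4.33 and 4.35 in the KO mice. After LPS+Dex it was 7.49, 7.96 and 7.67 in WT and 8.29, 8.21 and 8.17 in KO. The 3 treatments did not overlap, with every LPS library below every untreated library and every LPS+Dex library above them. Dex raised it 13.9-fold in WT (log2 change 3.80, SE 0.15, adjusted p = 1.81e-08) and 14.1-fold in KO (3.82, SE 0.15, adjusted p = 1.69e-08), with a range of 3.621 to 4.043 over the 6 mice. LPS+Dex also exceeded the untreated level in 4 of 4 mice, by 1.736 to 2.682 on the log2 scale.

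Fkbp5 encodes FKBP51, a cochaperone of HSP90 that lowers the affinity of GR for hormone. It was 4.003 and 3.248 log2 CPM in the untreated WT libraries and 3.61 and 3.32 in the untreated KO libraries. After LPS it was 3.68, 3.35 and 4.13 in WT and 3.40, 3.58 and 3.34 in KO. After LPS+Dex it was 6.53, 6.59 and 6.61 in WT and 6.40, 6.79 and 6.43 in KO. Untreated and LPS libraries overlapped, and all 6 LPS+Dex libraries lay above both. The Dex change was 7.24-fold in WT (2.86, SE 0.21, adjusted p = 1.69e-05) and 8.56-fold in KO (3.10, SE 0.21, adjusted p = 6e-06). WT mouse C, which had the highest LPS level, had the smallest change of the 6 mice at 2.472.

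Per1 encodes a repressor of the circadian clock. It was 5.51 and 5.56 log2 CPM in the untreated WT libraries and 5.50 and 5.36 in the untreated KO libraries. After LPS it was 5.50, 6.34 and 5.71 in WT and 5.89, 5.99 and 5.74 in KO. After LPS+Dex it was 7.93, 8.27 and 7.79 in WT and 8.05, 8.16 and 8.02 in KO. The LPS+Dex libraries again lay above all others, by more than the spread within any group. Dex raised Per1 4.43-fold in WT (2.15, SE 0.18, adjusted p = 4.89e-05) and 4.62-fold in KO (2.21, SE 0.18, adjusted p = 3.33e-05), with a range of 1.929 to 2.435 over 6 mice.

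Ddit4 encodes REDD1, an inhibitor of the growth-controlling kinase complex mTORC1. It was 0.04 and 1.81 log2 CPM in the untreated WT libraries and 1.38 and 1.99 in the untreated KO libraries. After LPS it was 0.12, 0.99 and 0.82 in WT and 0.59, 1.40 and 1.46 in KO. After LPS+Dex it was 1.78, 3.08 and 1.93 in WT and 2.53, 3.40 and 2.61 in KO. Within each genotype every LPS+Dex library exceeded every LPS library, but the untreated WT library of mouse B lay inside the range of the WT LPS+Dex libraries. The change was higher in 6 of 6 mice, by 1.114 to 2.086, and was called on the mean of the genotypes (3.16-fold, log2 change 1.66, SE 0.34, adjusted p = 0.0206). It was not called in WT (1.62, SE 0.49, adjusted p = 0.336) or in KO (1.70, SE 0.49, adjusted p = 0.236) alone.

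With the mouse as a block, which sets each LPS+Dex library against the LPS library of the same mouse, the SE of the Ddit4 change fell to 0.24 in each genotype. It was then called in WT (adjusted p = 0.0112), in KO (adjusted p = 0.00703) and on the mean (adjusted p = 0.000641). Under this block 2.19% of all genes were called in WT, 2.57% in KO and 4.85% on the mean, and 4 of the 6 genes in each. Without the block, the call on the mean was lost when any of 4 libraries was left out. The log2 change was then 1.53 (adjusted p = 0.0609) without the LPS library of WT mouse A, 1.52 (adjusted p = 0.0678) without that of KO mouse A, 1.46 (adjusted p = 0.0571) without the LPS+Dex library of WT mouse B and 1.52 (adjusted p = 0.0643) without that of KO mouse B.

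Sgk1, the serum- and glucocorticoid-regulated kinase that promotes sodium transport and cell survival, was the target that did not follow the other 4. It was 7.39 and 7.01 log2 CPM in the untreated WT libraries and 7.399 and 6.995 in the untreated KO libraries. After LPS it was 9.30, 9.04 and 9.17 in WT and 9.17, 8.88 and 9.58 in KO. After LPS+Dex it was 9.35, 8.93 and 9.09 in WT and 9.26, 8.91 and 9.64 in KO. LPS and LPS+Dex libraries overlapped, and all of them lay above the untreated libraries. The Dex change was -0.05 in WT (95% interval -0.51 to 0.42) and 0.06 in KO (95% interval -0.40 to 0.53), both with an adjusted p of 1. With the mouse as a block, the interval on the mean of the genotypes was -0.09 to 0.10. The Dex difference was positive in 4 and negative in 2 of 6 mice, between -0.112 and 0.092. Sgk1 was the only 1 of the 5 targets without a called Dex change on the mean of the genotypes. Its exact GRE palindrome came from a search that could miss other sites, so the match is not linked to the response here.

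**Figure D2:**
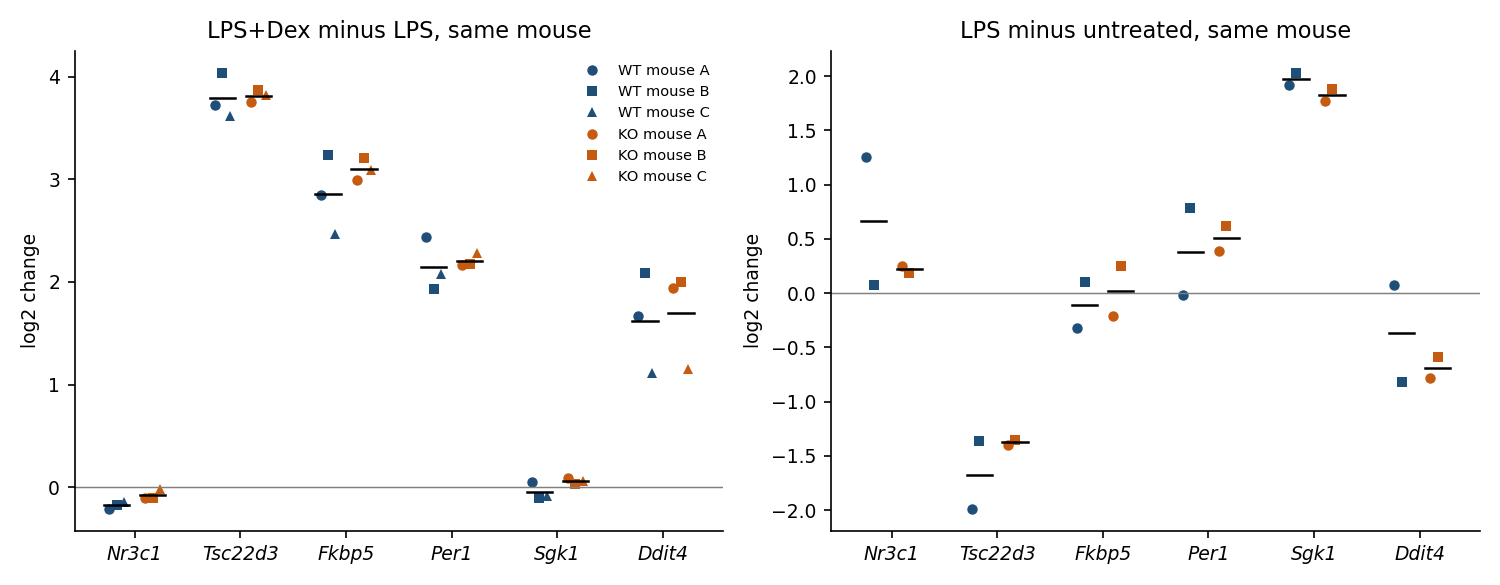
Log2 change of each gene within the same mouse (vertical axes), for LPS+Dex minus LPS in 6 mice (left) and LPS minus untreated in 4 mice (right). Points are mice and black bars are means per genotype. Tsc22d3, Fkbp5, Per1 and Ddit4 are above 0 in all 6 mice on the left, and on the right Sgk1 is above 0 and Tsc22d3 below 0 in all 4.

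The second question was what LPS alone did to these genes. LPS raised Sgk1 3.93-fold in WT (1.97, SE 0.24, adjusted p = 0.000134) and 4.04-fold in KO (2.01, SE 0.24, adjusted p = 0.000114). It lowered Tsc22d3 3.04-fold in WT (log2 change -1.60, SE 0.17, adjusted p = 2.92e-05) and 2.64-fold in KO (-1.40, SE 0.17, adjusted p = 0.000105), and in both genotypes Tsc22d3 had the 17th lowest change of the 9614 genes. These 2 of 6 genes were called in each genotype, against 6.91% of all genes in WT and 4.01% in KO. Within the same mouse Sgk1 rose by 1.771 to 2.032 and Tsc22d3 changed by -1.987 to -1.353, with the same direction in 4 of 4 mice. The untreated groups hold only 2 libraries each, and the Dex and LPS comparisons share the LPS libraries.

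Per1, Fkbp5, Ddit4 and Nr3c1 were not called after LPS. The log2 change of Per1 was 0.31 in WT (SE 0.21, adjusted p = 0.309) and 0.44 in KO (SE 0.21, adjusted p = 0.567). That of Fkbp5 was 0.10 and -0.03 (SE 0.24 in each), and that of Ddit4 was -0.28 and -0.53 (SE 0.54 in each). The sign of both WT values depended on which untreated library was left out, going from 0.47 without mouse A to -0.28 without mouse B for Fkbp5 and from -1.17 to 0.60 for Ddit4, and were not called in either setting. Nr3c1 differed by 0.52 in WT (SE 0.39, adjusted p = 0.381) and 0.04 in KO (SE 0.39, adjusted p = 1). The WT value came mostly from mouse A, whose same-mouse change was 1.252 against 0.079 in mouse B. This untreated library of mouse A is the one described above as unlike the others, and without it the WT change of Nr3c1 was -0.30 (adjusted p = 0.757). Without the untreated library of mouse B, which leaves that of mouse A alone, the change was 1.34 and was called (adjusted p = 0.00556). Tsc22d3 and Sgk1 were called in both settings, with WT changes of -1.37 and 2.16 without mouse A and -1.84 and 1.79 without mouse B.

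**Figure D3:**
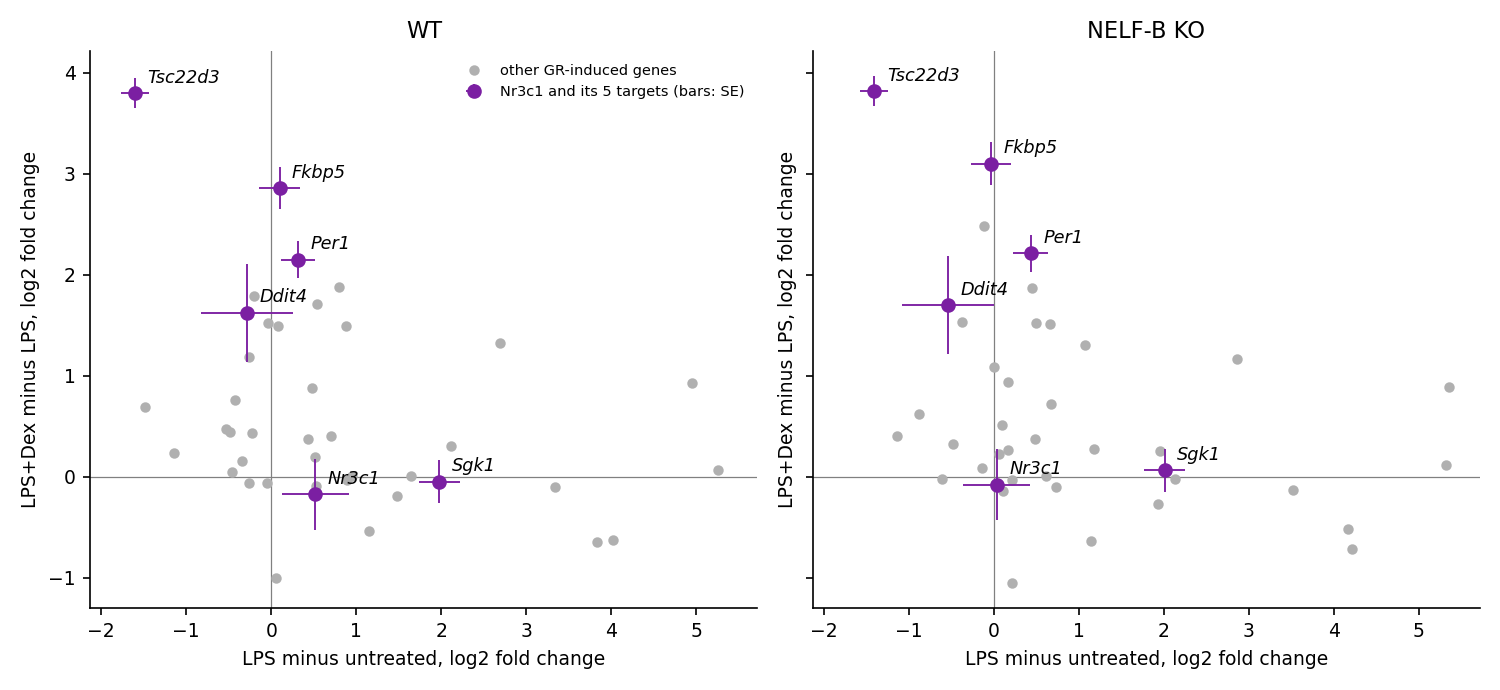
LPS effect (horizontal axes, log2 fold change) and Dex effect on top of LPS (vertical axes, log2 fold change) in WT (left) and NELF-B KO (right), for the 6 genes (purple, bars are SE) and 35 other genes listed as GR-induced (grey). The axes share the LPS libraries. Tsc22d3 sits at -1.60 and 3.80 in WT, and Sgk1 at 1.97 and -0.05.

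The third question was whether loss of NELF-B changed the levels or the responses of these genes. None of the 6 differed between genotypes at the threshold in untreated cells, after LPS or after LPS+Dex, where 0.0104%, 0.146% and 0.114% of all genes were called. Tsc22d3 came nearest. It was higher in KO by 0.50 after LPS (95% interval 0.17 to 0.82, unadjusted p = 0.00536 and adjusted p = 0.245, limma) and by 0.52 after LPS+Dex (95% interval 0.20 to 0.84, unadjusted p = 0.00409 and adjusted p = 0.184, limma), and every KO library lay above every WT library of the same treatment. The untreated difference was 0.29 (95% interval -0.10 to 0.69, adjusted p = 0.369), and there the WT and KO libraries overlapped. These values do not pass the correction over all genes. How many of all genes separate the KO from the WT libraries in this way was not counted, so little can be read from the separation. The LPS and LPS+Dex libraries also came from the same mice, so the separations under these treatments are not independent.

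The labels print the same string on libraries of both B mice, which reads like a date but is not named as one. A string of this style also stands on libraries of KO mouse A and is absent from those of WT mouse A. Those of both C mice carry codes of the same style but no shared code, and the A mice remain, so only the B pair is linked by the labels themselves. Within these pairs the Tsc22d3 difference was 0.773, 0.415 and 0.299 after LPS and 0.803, 0.246 and 0.501 after LPS+Dex for A, B and C. With the pair as a block the adjusted p was 0.149 after LPS and 0.113 after LPS+Dex, and 1.09% and 1.77% of all genes were called, none of the 6 among them. The summed macrophage marker level was 13.11 to 13.12 log2 CPM in WT and 13.09 to 13.24 in KO after LPS. The single measured neutrophil and progenitor marker, S100a8, was 2.45 to 4.36 in WT and 3.80 to 5.18 in KO after LPS. The part of these markers in the Tsc22d3 difference was not tested, and in bulk libraries fewer cells of a type and less RNA per cell cannot be told apart.

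Ddit4 was higher in KO than in WT within every pair, by 0.327 to 0.748 after LPS or LPS+Dex, but the group differences of 0.51 (95% interval -0.54 to 1.56) and 0.58 (95% interval -0.46 to 1.63) were not called. With the pair as a block their intervals were -0.06 to 1.07 (adjusted p = 0.461) and 0.02 to 1.15 (adjusted p = 0.321), and they were not called there either. The other 4 genes had differences of -0.28 to 0.19 in the treated groups. In untreated cells the differences of Nr3c1 and Ddit4 were 0.58 and 0.76 and were not called (adjusted p = 0.437 and 0.454). They rested on the untreated library of WT mouse A. Without the one of WT mouse B they were 1.40 and 1.65 and were called (adjusted p = 0.00706 and 0.0397), and without the one of mouse A they were -0.24 and -0.13.

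The Dex effect itself did not differ between the genotypes at the threshold for any of the 6 genes, and 0% of all genes were called for this difference. At an unadjusted p under 0.05 the limma fit gave 0 genes, the same fit with the mouse as a block 27 and voom in limma 0, and none of these held any of the 6. With no true difference a share of about 0.05 of all genes would be expected there, so these tests were conservative. The lack of a call therefore does not show that the Dex effect was equal in the genotypes. The difference in Dex effect, KO minus WT, was 0.02 for Tsc22d3 (95% interval -0.43 to 0.47), 0.24 for Fkbp5 (-0.40 to 0.89), 0.06 for Per1 (-0.50 to 0.62), 0.07 for Ddit4 (-1.41 to 1.56), 0.11 for Sgk1 (-0.55 to 0.77) and 0.10 for Nr3c1 (-0.98 to 1.17). For Tsc22d3 this interval, without the block, allows a fold ratio between genotypes of 0.741 to 1.39, and for Ddit4 one of 0.377 to 2.94. With the mouse as a block the intervals were -0.47 to 0.51 for Tsc22d3, -0.35 to 0.84 for Fkbp5 and -0.37 to 0.49 for Per1. They were -0.70 to 0.85 for Ddit4, -0.08 to 0.30 for Sgk1 and -0.53 to 0.72 for Nr3c1. The difference in LPS effect was not called for any of the 6 either (0% of all genes, with 221 at an unadjusted p under 0.05 in limma and 196 in voom, none of the 6 among them), with values of -0.48 for Nr3c1 to 0.20 for Tsc22d3.

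**Figure D4:**
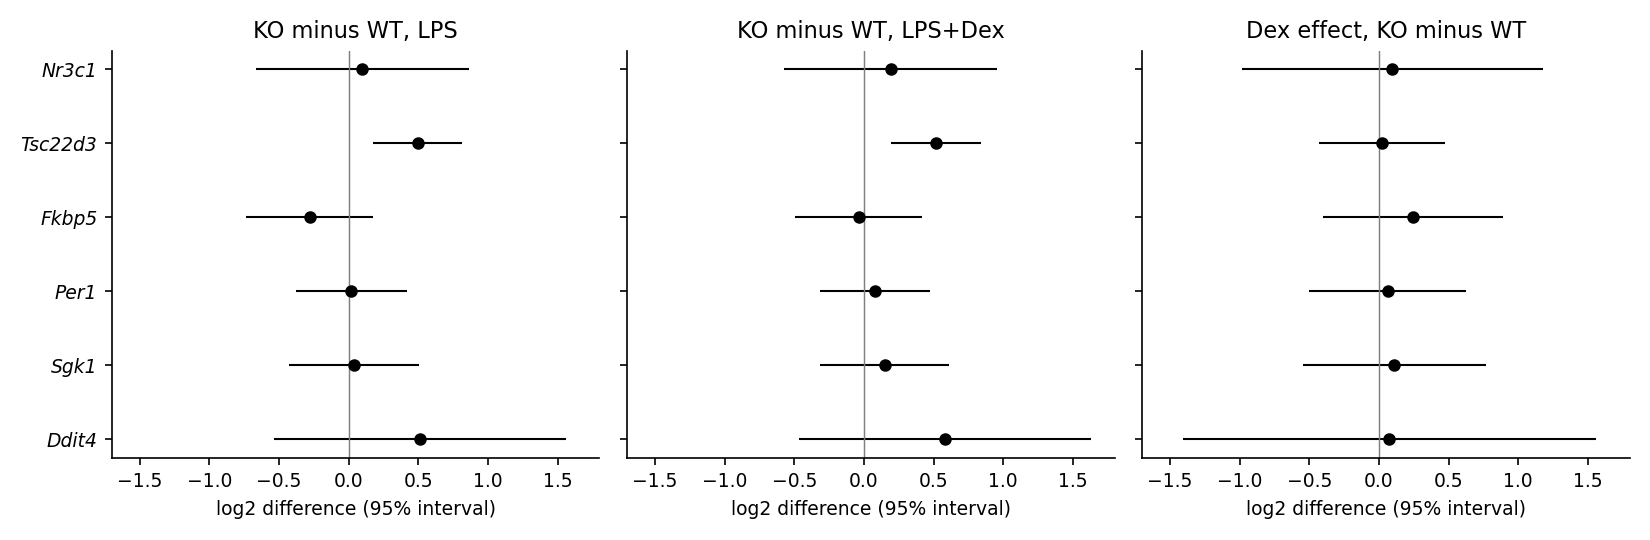
Difference between NELF-B KO and WT (horizontal axes, log2) for each of the 6 genes after LPS (left), after LPS+Dex (middle) and in the Dex effect (right). Points are estimates from the fit of 16 libraries and bars are unadjusted 95% intervals. The intervals of Tsc22d3 lie above 0 in the left and middle panels (0.17 to 0.82 and 0.20 to 0.84), and all 6 intervals span 0 in the right panel.

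To place the 5 targets among other genes, a list of 40 genes taken to be GR-induced in some cell type was used, of which 35 were measured. The listing was not checked for each gene, so a fall of a listed gene with Dex is not read as a reversal. On the mean of the genotypes 8 rose with Dex, against 1.24% of all genes, 4 fell, against 0.874%, and 23 were not called, with a median change of 0.31 against -0.005 for all genes. Klf9, a Kruppel-like repressor, rose by 2.18 (SE 0.26, adjusted p = 0.000283), and Map3k6, a stress kinase, by 1.78 (SE 0.17, adjusted p = 5.13e-05). Klf4, a Kruppel-like factor of myeloid cells, rose by 1.503 (SE 0.14, adjusted p = 4.3e-05), Mt2, a metal-binding metallothionein, by 1.41 (SE 0.31, adjusted p = 0.0328), Cited2, a regulator of CBP and p300, by 1.24 (SE 0.18, adjusted p = 0.00188) and Rhob, a small GTPase, by 1.14 (SE 0.16, adjusted p = 0.00149). Each of these 6 was higher after LPS+Dex in 6 of 6 mice. Dusp1, a MAP kinase phosphatase, and Tle3, a corepressor, are the other 2 that rose, by 0.91 (SE 0.16, adjusted p = 0.00656) and 0.37 (SE 0.08, adjusted p = 0.0295), and were added to the text after their values were seen.

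The 4 listed genes that fell are named here after their values were seen, other than Nr1d1. Nr1d1, which encodes the clock repressor REV-ERB-alpha, fell by 1.03 (SE 0.12, adjusted p = 0.000233), Zfp36, an mRNA decay factor, by 0.68 (SE 0.16, adjusted p = 0.0489), Bcl6, a transcriptional repressor, by 0.59 (SE 0.13, adjusted p = 0.0355) and Errfi1, an inhibitor of EGF receptors, by 0.58 (SE 0.11, adjusted p = 0.0103). Of these, Zfp36, Bcl6 and Errfi1 were higher after LPS in 4 of 4 mice, by 3.943 to 4.262, 1.069 to 1.408 and 3.654 to 4.341. They were called after LPS in both genotypes. Nr1d1 was higher after LPS by 0.107 to 0.385 in the same mice but was called in neither genotype. Genes that rose with Dex were also higher after LPS in 4 of 4 mice, namely Dusp1 (4.819 to 5.362), Cited2 (2.376 to 3.144), Klf4 (0.403 to 1.112), Tle3 and Map3k6. Dusp1 and Cited2 were called after LPS in both genotypes, Klf4 in WT only, and Tle3 and Map3k6 in neither. Klf9, Mt2 and Rhob were higher after LPS in 1, 3 and 2 of 4 mice. Genes called higher after LPS were thus found among those that fell and among those that rose. A link between the LPS and Dex changes was not tested. LPS raised 12 and lowered 1 of the 35 in WT, where 6.91% of all genes were called (445 higher and 219 lower of 9614), and raised 10 and lowered 0 in KO, where 4.01% were called (281 higher and 105 lower).

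**Figure D5:**
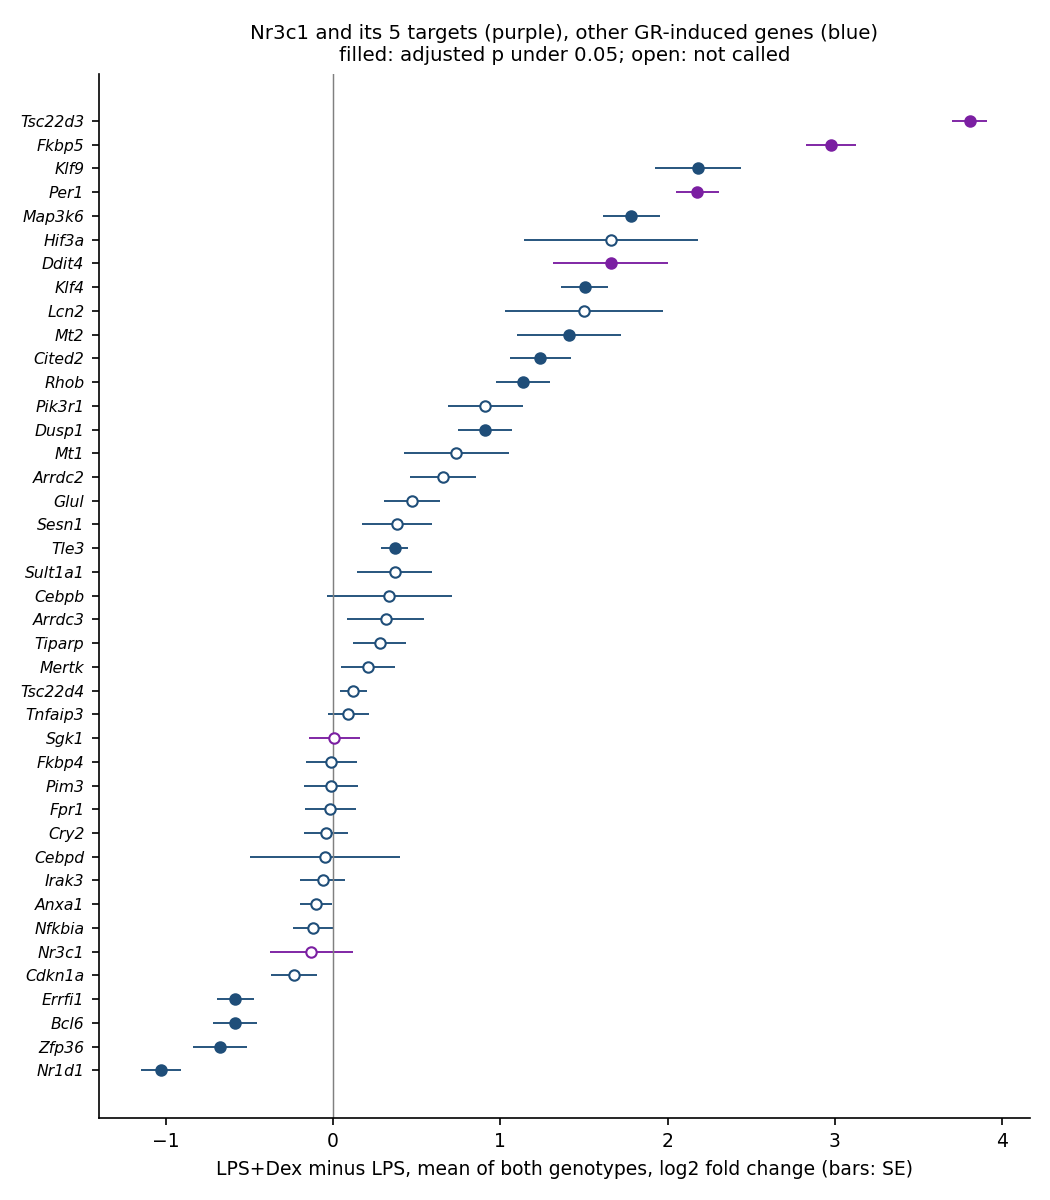
Mean Dex effect over both genotypes (horizontal axis, log2 fold change of LPS+Dex over LPS, bars are SE) for the 6 genes described (purple) and 35 other genes listed as GR-induced (blue), ordered by effect on the vertical axis. Filled points had an adjusted p under 0.05. Tsc22d3 and Fkbp5 are the top 2 at 3.81 and 2.98, and Nr1d1 is the lowest at -1.03.

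The genes around these targets were read next. None of 18 measured receptor chaperones and cochaperones, none of 9 measured genes of glucocorticoid supply and transport (11 listed), none of 8 measured paralogs of the 6 genes (14 listed) and none of 15 measured mTORC1 pathway genes around Ddit4 (17 listed) was called for the mean Dex effect, against 2.11% of all genes. Their median changes were -0.02, -0.02, 0.06 and 0.03. Among the chaperones, Fkbp4, the cochaperone that competes with FKBP51 for HSP90, had a change of -0.01 (SE 0.15, adjusted p = 1). Among the paralogs, Per2, which acts beside PER1 in the clock, had a change of 0.43 (SE 0.18, adjusted p = 0.631) and Sgk3 of -0.01 (SE 0.12, adjusted p = 1). Of 14 measured clock genes around Per1 (16 listed) only Nr1d1, already described, was called, and it fell. Lists overlap in a few genes, such as Fkbp4, Per2 and Nr1d1.

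LPS alone moved a few of these genes, all named here after their values were seen. Over all genes 6.91% were called after LPS in WT and 4.01% in KO, and nothing is read from the counts in these short lists about the lists themselves. Tsc22d1, the paralog of Tsc22d3, rose after LPS by 0.81 in WT (SE 0.13, adjusted p = 0.00162) and 0.70 in KO (SE 0.13, adjusted p = 0.0061), while Tsc22d3 fell. It was the only 1 of the 8 measured paralogs called after LPS in either genotype. Of the 18 chaperones and cochaperones, Dnajb1, an HSP40 family cochaperone, rose in KO by 1.11 (SE 0.15, adjusted p = 0.000251), and 0 were called in WT. Of the 15 mTORC1 pathway genes, Mlst8, a subunit of the complex, fell by 0.82 in WT (SE 0.13, adjusted p = 0.0014) and 0.63 in KO (SE 0.13, adjusted p = 0.0117), and Sesn2, a stress-induced inhibitor of the pathway, fell by 0.57 in WT (SE 0.15, adjusted p = 0.0375). Of the 14 clock genes, Cry1, a partner of PER proteins, rose by 0.46 and the output factors Dbp and Tef fell by 0.87 and 0.48 in WT (adjusted p = 0.0226, 0.0334 and 0.0306), and 0 were called in KO. The difference between genotypes in the LPS effect was not called for any gene of the table. Between genotypes, Dnajb1 was higher in KO after LPS by 0.97 (SE 0.13, adjusted p = 0.0111) and Errfi1 was higher in KO after LPS by 0.95 (SE 0.15, adjusted p = 0.027) and after LPS+Dex by 1.07 (SE 0.15, adjusted p = 0.0116). No other measured gene of the pathway lists was called between genotypes.

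The targets fell into different patterns over the 16 libraries. With the mean of each mouse subtracted, the correlation was 0.940 between Tsc22d3 and Fkbp5, 0.984 between Fkbp5 and Per1 and 0.944 between Tsc22d3 and Ddit4. Sgk1 had 0.101 with Tsc22d3, 0.235 with Ddit4, 0.429 with Fkbp5 and 0.554 with Per1. Nr3c1 had -0.222 to 0.092 with the 4 genes that rose and 0.612 with Sgk1. The untreated library of WT mouse A, described above as unlike the others, weighs heavily in that 0.612. It had the lowest Nr3c1 level of all, at 5.43 log2 CPM, with Sgk1 at 7.39, and the correlation was not recomputed without it. The C mice have no untreated library, so their subtracted mean covers treated libraries only. These are descriptions over 16 libraries that share mice and treatments.

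The 3 genes with the pattern most like each target were then listed by the same correlation. For Tsc22d3 they were 1700017B05Rik (0.997), Abhd15 (0.988) and Sik1 (0.987), which like it were lower after LPS and highest after LPS+Dex. 1700017B05Rik averaged 7.11, 6.14 and 8.11 log2 CPM in untreated, LPS and LPS+Dex WT libraries and 7.10, 6.16 and 8.36 in KO. For Fkbp5 they were Tigd2 (0.994), Cytip (0.988) and Pfkfb3 (0.988), of which Pfkfb3, an activator of glycolysis, averaged 6.86, 6.90 and 9.33 in WT and 7.43, 7.30 and 10.12 in KO. For Per1 they were Rcsd1 (0.991), Il15ra (0.991) and Map3k6 (0.989). Il15ra, a receptor subunit for interleukin-15, averaged 0.74, 1.65 and 4.28 in WT and 1.09, 1.39 and 4.21 in KO.

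The genes most like Sgk1 were of another kind. They were Cxcl1 (0.998), a neutrophil-attracting chemokine, Tnfsf9 (0.998), a ligand of the TNF family, and Pvr (0.997), an adhesion receptor. Cxcl1 averaged 0.63, 8.67 and 8.77 log2 CPM in untreated, LPS and LPS+Dex WT libraries and 0.33, 8.46 and 8.62 in KO. For Ddit4 they were Havcr2 (0.992), B4galt1 (0.973) and Tmem104 (0.973). Havcr2, which encodes TIM-3, gave a correlation of -0.134 with Ddit4 when the mouse means were not subtracted, so that likeness rests on the subtraction. Of the 15 genes listed for the 5 targets, 5 were also in the top 3 without the subtraction (1700017B05Rik, Abhd15, Tigd2, Il15ra and Tnfsf9) and 10 were not.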

How the data were processed

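RNA-seq of 16 BMDM libraries was analysed. The authors aligned paired 50 bp reads to mm10 in CLC Bio Genomic Workbench and took uniquely mapped exon reads as gene counts. Per the labels and the paper's methods, these were normalised in edgeR (weighted trimmed mean), and the authors deposited them as log2 CPM for 9614 genes. The submitters' processing notes name CASAVA 1.8, FastQC and edgeR. The filter that left 9614 genes and the edgeR and CLC versions are not given in the sources used here. The 18 deposited columns of p-values and FDR values of the authors' own comparisons were not used, and no pseudocount or filter was added.

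Groups and mice were taken from the labels, and doses and times from the study's methods. All 16 libraries were fitted in 6 groups with limma 3.58.1 under R 4.3.3 (lmFit, contrasts.fit, eBayes with trend), adjusted over 9614 genes by the Benjamini-Hochberg method and called at an FDR under 0.05. The comparisons were LPS+Dex against LPS, LPS against untreated, KO against WT under each treatment, and the differences of these effects. The paper's methods compare groups pairwise in edgeR, which was not used here because the values are log2 CPM. The fit was run on simulated data with independent noise in each library. That simulation lacks the likeness of libraries from the same mouse, so it does not test the fit under that likeness. Python 3.11.15, numpy 2.4.6, pandas 2.3.3 and matplotlib 3.10.9 were used for descriptions and plots.

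The deposited values rise in equal steps of CPM, and with a step as 1 read 100% of values under 3 CPM were whole within 0.15 read, which gives 25030999 to 49730049 reads per library (median 34181802). A floor of 3 reads was 0.0653 to 0.136 CPM, for counting error only.

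Libraries with the same mouse number come from the same mouse. Their deviations from the group means correlated across genes by 0.885 to 0.939 in WT and 0.781 to 0.902 in KO for LPS and LPS+Dex, and by 0.185 to 0.822 for untreated and LPS. Mice that share a letter between genotypes, of which only the B mice share a printed date-like string, correlated by 0.443 to 0.760. Each mouse is a separate animal, so n counts mice.

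Named genes were the 6 genes, up to 6 genes by size of change among those called for the mean Dex effect in each list, the 3 genes most correlated with each target, and 6 response controls. Other named genes were added after their values were seen. Genes and lists were chosen with earlier results of these data known. Alternatives were the replicate block, only the groups compared, log2(CPM + 1), a mean log2 CPM above 1, median centring, voom on the recovered reads, other thresholds and leaving out each library. Promoters are from RefSeq (GRCm38.p6), where all 5 targets matched by symbol, and positions from GENCODE vM21. The upstream sequence of Nr3c1 was not used here.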

Additional observations from a re-analysis of the deposited data

How the results depend on the processing

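Over the alternatives 1500 values of the 6 genes were recomputed, and 0 changed sign while called. In 74 the sign differed with neither value called, 8 gained a call and 4 lost one. With the replicate block by mouse 4 of the 6 genes were called for the Dex effect in WT and in KO, in place of 3, the addition being Ddit4, and the blocks by mouse or by pair changed no other call of the 6. An unadjusted p under 0.05 with over 1.5-fold also added Ddit4 in WT and in KO. Without the untreated library of WT mouse B, 1 of the 6 genes was called for the difference in LPS effect (Nr3c1, -1.30, adjusted p = 0.0326) and 2 for KO minus WT in untreated cells, in place of 0, and Nr3c1 for the LPS effect in WT. By construction that setting leaves WT mouse A as the only untreated WT library, which is then assumed to vary like the other groups. The 4 lost calls were those of Ddit4 for the mean Dex effect, at adjusted p of 0.0571 to 0.0678.

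Counts over the whole table moved more. With the replicate block the called genes went from 72 to 211 for the Dex effect in WT, from 86 to 247 in KO, from 203 to 466 on their mean, from 664 to 1326 for the LPS effect in WT, from 386 to 704 in KO, and from 1, 14 and 11 to 3, 105 and 170 for KO minus WT in untreated, LPS and LPS+Dex cells. With only the libraries compared they were 37, 131 and 139 for the Dex effect in WT, the Dex effect in KO and the LPS effect in WT, and 0 for each comparison of KO with WT. In untreated cells the count of KO minus WT was also 0 with log2(CPM + 1) and with a mean log2 CPM above 1. An FDR under 0.1 gave 1179 for LPS in WT, and 38 and 30 for KO minus WT after LPS and LPS+Dex. An unadjusted p under 0.05 with over 1.5-fold gave 180 and 202 for Dex in WT and KO, 1513 for LPS in WT, 149 for the difference in LPS effect, and 732, 314 and 337 for KO minus WT in untreated, LPS and LPS+Dex cells. Leaving out 1 library gave 32 to 124 for Dex in WT, 39 to 153 for Dex in KO, 379 to 5390 for LPS in WT, 235 to 564 for LPS in KO, 0 to 3734 for the difference in LPS effect, and 0 to 4859, 3 to 44 and 3 to 70 for KO minus WT in untreated, LPS and LPS+Dex cells. The counts of 5390, 3734 and 4859 were those without the untreated library of WT mouse B. Voom on the recovered reads called 76, 90 and 215 genes for the Dex effect in WT, in KO and on their mean. Depth limits Ddit4 most, with as few as 22 reads in a library.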
